A study of Mus musculus with 4 samples.

Results

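Motile cilia genes were followed on 4 Affymetrix arrays of trachea taken from mouse embryos at embryonic day 16. The set held 43 genes chosen by name for their part in building or moving the cilia of multiciliated cells. A gene was found on the array through its platform symbol, current or older, and was represented by its probe set with the highest mean log2(signal + 16). Of the 43 genes, 41 were on the array, out of 18193 genes on it in all. The probe set of Dnah7b was shared with another gene and Lrriq1 was not listed, so both were left out. There were 2 samples labelled wild type and 2 labelled a1H knockout, all from C57BL/6 mice, and each genotype had a replicate 1 and a replicate 2. The name a1H was read as the T-type calcium channel gene Cacna1h. The design text speaks of homozygous embryos, and the labels do not name the allele or say whether replicates were different embryos, litters or pools. P-values therefore measure only how far these samples spread, and that spread may be technical. The comparison asks how loss of the channel bears on transcript levels in the trachea.

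Multiciliated cells of the airway epithelium carry motile cilia that sweep mucus along the airway surface. A motile cilium has a ring of microtubule doublets around a central pair, with dynein arms that drive sliding, nexin links that hold the doublets together and radial spokes that connect them to the centre. The transcription factor Foxj1 and the RFX factors switch on the genes for these parts, downstream of regulators such as Myb, and in the mouse trachea the first ciliated cells appear late in gestation. RFX factors bind an inverted repeat called the X-box, whose sides read GTTGCC on one strand or the other, and Foxj1 binds forkhead sites.

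Because regulators and their candidate targets are both in the set, promoters were searched for these letters. The RefSeq table (GRCm38.p6) held promoters for 35 of the 43 genes, each reaching from 250 bases before to 50 bases after a start site. The core letters GTTGCC, searched on both strands, were present in 22 of these 35 genes, or 62.9%, and in 14.1% of all 27025 genes of the table. They were present in 24 of 57 other motile cilia genes and in 15 of 34 genes of intraflagellar transport and the BBSome, which all cilia use. A strict 14-letter form of the X-box palindrome, with a fixed gap between its sides, was searched as well. A match to this form can overlap a match to the core letters. The strict form was found in 1 member, Pifo, and in 0.529% of all genes. Other forms of the X-box were not searched, so this count does not show that other members lack one. The forkhead letters GTAAACA matched in 2 members, Ak7 and Mlf1, or 5.71%, and in 4.05% of all genes. These matches describe letters in the window and do not show that a factor binds there. The promoters of 5 genes described below are shown 5′ to 3′ on the strand of the gene, taken in order of unadjusted p among the named members whose entry held a motif, with the core letters in capitals.
Ccdc153, chr9:44240427-44240726, plus strand: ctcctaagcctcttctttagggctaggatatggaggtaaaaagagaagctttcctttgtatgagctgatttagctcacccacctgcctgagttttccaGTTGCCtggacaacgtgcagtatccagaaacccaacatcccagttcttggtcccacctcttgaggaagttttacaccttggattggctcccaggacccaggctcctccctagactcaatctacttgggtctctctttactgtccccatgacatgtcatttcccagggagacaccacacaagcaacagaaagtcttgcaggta
Spag16, chr1:69826720-69827019, plus strand: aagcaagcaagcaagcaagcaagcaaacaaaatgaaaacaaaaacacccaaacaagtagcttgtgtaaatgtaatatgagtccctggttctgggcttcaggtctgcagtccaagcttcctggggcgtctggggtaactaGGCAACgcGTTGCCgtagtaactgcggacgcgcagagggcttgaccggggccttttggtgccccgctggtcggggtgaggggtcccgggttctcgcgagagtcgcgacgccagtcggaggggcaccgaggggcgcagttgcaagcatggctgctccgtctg
Rfx3, chr19:28011117-28011416, minus strand: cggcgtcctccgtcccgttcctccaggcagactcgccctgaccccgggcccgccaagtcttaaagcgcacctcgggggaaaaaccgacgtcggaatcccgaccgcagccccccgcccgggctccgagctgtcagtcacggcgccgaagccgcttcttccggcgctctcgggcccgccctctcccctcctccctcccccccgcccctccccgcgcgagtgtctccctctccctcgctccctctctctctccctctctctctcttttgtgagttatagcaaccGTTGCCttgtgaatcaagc
Rfx2, chr17:56830959-56831258, minus strand: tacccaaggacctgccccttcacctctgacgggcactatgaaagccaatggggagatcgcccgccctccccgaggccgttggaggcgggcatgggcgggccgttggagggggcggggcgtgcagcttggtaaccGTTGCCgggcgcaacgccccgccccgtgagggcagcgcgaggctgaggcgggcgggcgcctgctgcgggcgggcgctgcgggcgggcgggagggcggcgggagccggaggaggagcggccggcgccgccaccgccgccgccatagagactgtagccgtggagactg
Ccdc113, chr8:95533850-95534149, plus strand: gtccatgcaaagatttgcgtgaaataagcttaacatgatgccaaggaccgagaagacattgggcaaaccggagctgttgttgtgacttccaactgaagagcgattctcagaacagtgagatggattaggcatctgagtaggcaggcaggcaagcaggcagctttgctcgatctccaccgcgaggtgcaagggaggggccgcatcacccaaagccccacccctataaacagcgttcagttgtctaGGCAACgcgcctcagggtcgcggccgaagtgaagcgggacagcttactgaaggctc
The Spag16 window held the core letters once on each strand, 2 bases apart. The windows of Rfx2 and Rfx3, themselves genes of RFX factors, held them once each. Tested members with the core letters had a median log2 difference of -0.24 between labelled knockout and wild type (n = 16), and those without had -0.43 (n = 8). Both medians lay below 0, and the difference between them was not tested.

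**Figure D1:**
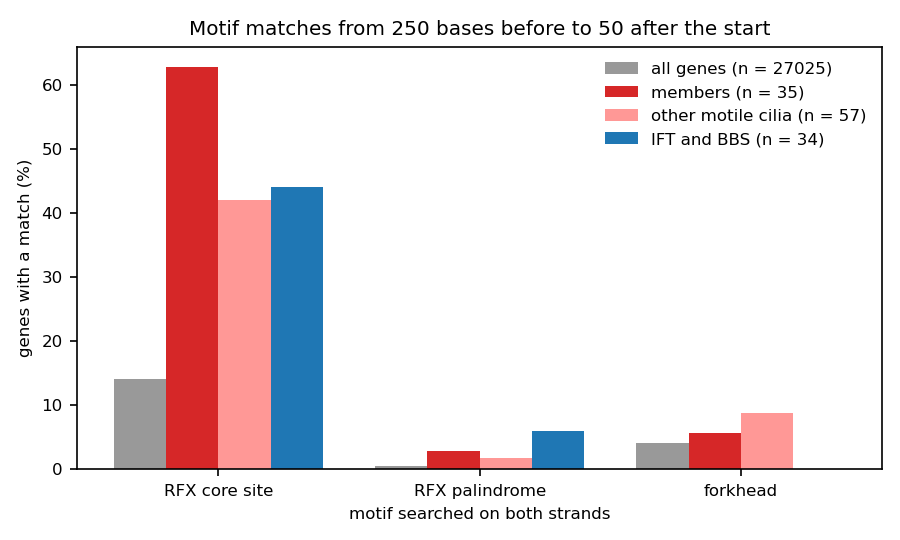
Share of genes (%) with at least 1 match to each motif, for all genes of the promoter table, the motile cilia members, other motile cilia genes and genes of intraflagellar transport and the BBSome. The RFX core letters were found in 62.9% of members and 14.1% of all genes.

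The 4 arrays differed in general measures. Median signals were 459 and 416 for wild type against 426 and 320 for the labelled knockout, so dim probe sets read lower on labelled knockout replicate 2. Spiked hybridisation controls were alike within a replicate number, with geometric means of 6361 and 6258 for replicate 1 against 14756 and 18565 for replicate 2. The 3′ to 5′ ratio of actin probe sets, which rises as RNA is shortened, was 1.69 and 1.66 for wild type against 1.90 and 1.97, so it moved with the genotype labels, and its part in the results was not tested. That of Gapdh was 1.26 and 1.40 against 1.36 and 1.61, with overlapping groups. Markers of some other organs stood out on single arrays. Of placental genes 8 of 8 were highest on labelled knockout replicate 2. Of salivary gland genes 9 of 11 were highest on wild-type replicate 2, and 9 of 10 thymocyte genes on labelled knockout replicate 1. Cacna1h was not lower in the labelled knockout, with signals of 981 and 631 against 630 and 538 for wild type. Where its probes lie relative to the deletion was not known, so this gene gave no check of the genotype labels, on which every direction here rests.

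Motile cilia genes read lower in the labelled knockout in 39 of the 41 genes on the array, by small amounts that did not pass the test gene by gene. Of the 41, 31 were at or above the median level of all probe sets, a signal of 397, and were tested. Of these 31 genes 29 were lower, and lower genes made up 44.1% of all 11694 genes tested. The median log2 difference was -0.33, labelled knockout minus wild type, which is a signal 20.3% lower, against a median of 0.04 over all genes tested. Cartilage genes, which mark another tissue of the trachea, were lower in 11 of 14 with a median of -0.32 (-0.40 from replicate 1, -0.22 from replicate 2). They were lower without overlap in 8, or 57.1%, against 14.6% of all genes tested. Smooth muscle genes were lower in 7 of 9 with a median of -0.30 (0.27 and -0.77). The cartilage and smooth muscle lists thus had medians of about the same size as the cilia genes. Medians were -0.28 for secretory, -0.09 for neuroendocrine, -0.06 for pan-epithelial and 0.16 for basal cell genes. With arrays centred on their medians 18 of the 31 tested members were lower, with a median of -0.10 where all genes tested moved to 0.27. The 11 members that then turned higher were Rsph1, Rsph9, Dynlrb2, Zmynd10, Tekt4, Tppp3, Enkur, Ak7, Lrrc23, Mlf1 and Pifo, none of them below -0.21 as deposited. As deposited, replicate 1 arrays alone gave -0.31 and replicate 2 arrays alone -0.43. The members' median deviation from each gene's own mean was 0.14 and 0.22 on the wild-type arrays and -0.16 and -0.20 on the labelled knockout arrays, so the groups did not overlap in this measure. In bulk tissue, fewer multiciliated cells and less RNA per cell cannot be told apart.

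**Figure D2:**
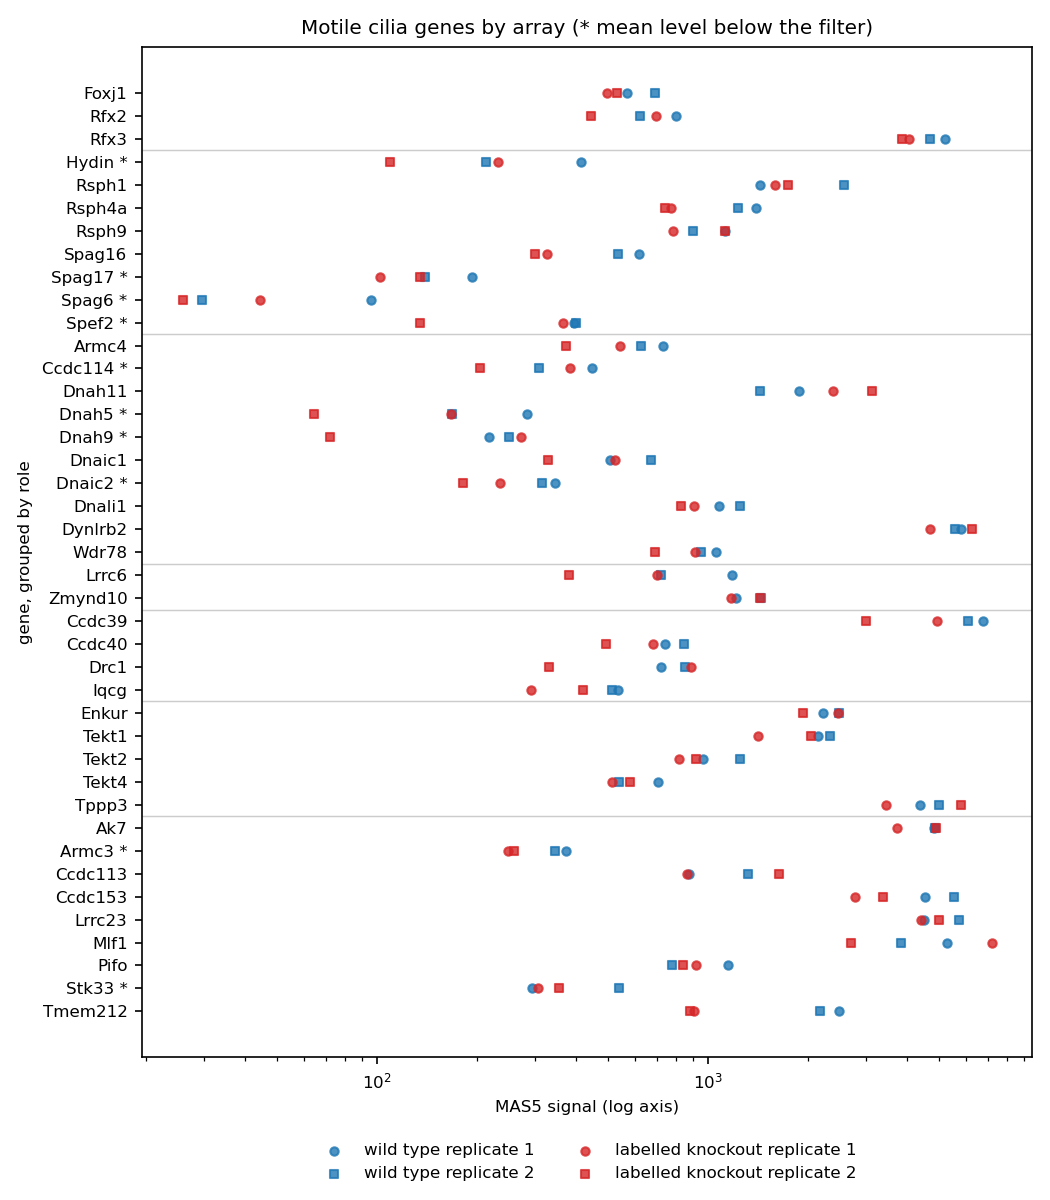
MAS5 signal (log axis) of the 41 motile cilia genes on each array, in blue for wild type and red for the labelled knockout, with circles for replicate 1 and squares for replicate 2. Asterisks mark the 10 genes whose mean level was too low to be tested, and most red symbols lie to the left of the blue ones.

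No member passed the test over all genes. In the limma fit 0 of 31 members had a Benjamini-Hochberg adjusted p under 0.05, as for 0% of all 11694 genes tested, and members' adjusted p ranged from 0.875 to 0.992. At an unadjusted p under 0.05 there were 5 lower members and 1 higher one, against 1.75% of all genes lower and 2.83% higher. The groups did not overlap in 15 lower members, or 48.4% of those tested, where 14.6% of all genes were lower without overlap. They did not overlap in 1 higher member, where 21.5% of all genes were higher without overlap. Within both replicate numbers 18 members were lower, or 58.1%, against 26.3% of all genes, and 1 was higher, against 36%. A log2 difference below -0.5 was seen in 9 members, or 29.0%, against 4.46% of all genes, and one above 0.5 in 1 member, against 4.87%. With 2 arrays per group an exact two-sided permutation test cannot give a p below 0.333. The count of called members depended on single arrays. Without labelled knockout replicate 1, Ccdc39, Mlf1 and Tmem212 passed as lower and Dnah11 as higher, while 4.21% of all genes tested passed, 2.63% as lower and 1.57% as higher. Without labelled knockout replicate 2, Tmem212 passed as lower, while 0.889% of all genes tested passed, 0.111% as lower and 0.778% as higher. In both cases the knockout group is 1 array, assumed to vary as the wild-type arrays do.

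As deposited, members read lower at each of 4 levels of signal, although between 1200 and 3000 the replicate 1 arrays alone gave a median of 0.05, and with centred arrays both brighter levels turned to medians of 0.08. Among tested genes with a mean signal up to 600, 6 of 6 members were lower and their median log2 difference was -0.52, where all 1041 genes of that level had -0.03. Between 600 and 1200 it was 10 of 11 members with a median of -0.34, against 0.04 for all genes. Between 1200 and 3000 it was 5 of 6 members with -0.16, against 0.07. Above 3000 it was 8 of 8 members with -0.15, against 0.03. With centred arrays 5 of 6, 8 of 11, 2 of 6 and 3 of 8 members were lower, from the dimmest level to the brightest. Members' medians were thus nearer to 0, or above it when centred, among bright genes. Centring moved the median of all genes tested to 0.27 as well. It adds the same amount to every gene, so members stood no differently against other genes of their level. Below the filter, 10 of 10 members were lower with a median of -0.57, but 65.8% of the 6499 untested genes were lower there too, with a median of -0.21.

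**Figure D3:**
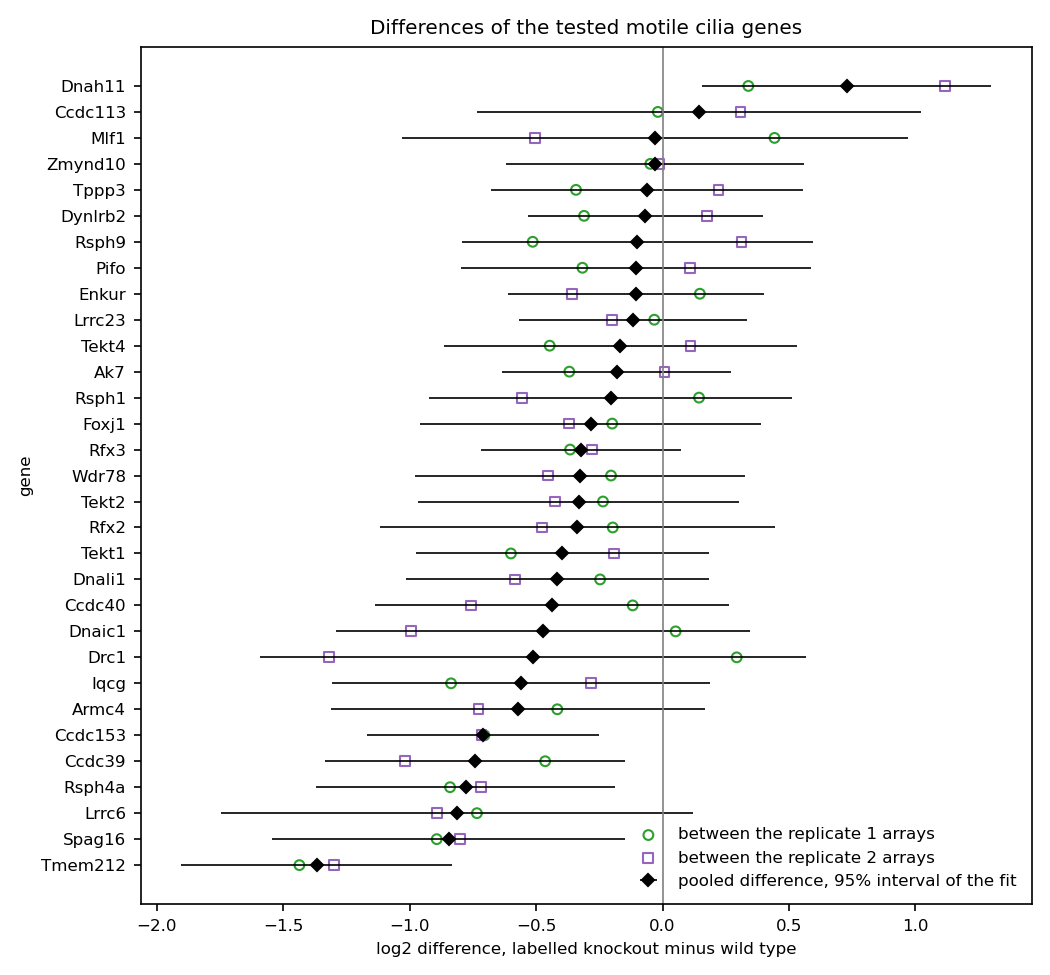
Log2 difference (labelled knockout minus wild type) of the 31 tested motile cilia genes, with the 95% interval of the fit before adjustment (bars), and the difference between the replicate 1 arrays (circles) and the replicate 2 arrays (squares). Of 31 genes 29 lie below 0, from Tmem212 at -1.37 to Dnah11 at 0.73.

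The 3 transcription factors in the set were all lower by similar small amounts, and all 3 were lower within both replicate numbers and with centred arrays. Foxj1, the factor required for motile cilia, gave signals of 569 and 692 in wild type against 494 and 532 in the labelled knockout. The groups were separate but close, and the log2 difference was -0.28 (SE 0.29; limma, adjusted p = 0.893, n = 2 per group), with a 95% interval from -0.96 to 0.39. Rfx3, an RFX factor that acts with Foxj1, gave signals of 5214 and 4674 in wild type against 4044 and 3847 in the labelled knockout. Both knockout arrays lay below both wild-type arrays, and the log2 difference was -0.32 (SE 0.17). Its dimmer probe set, which lay below the filter level and read at most 178, had -0.74, and the mean of both -0.53. Rfx2, another RFX factor of ciliated cells, gave signals of 800.2 and 624 in wild type against 696 and 444 in the labelled knockout, so its groups overlapped, and the log2 difference was -0.34 (SE 0.33). It was -0.02 without labelled knockout replicate 2. Of its 3 dimmer probe sets 1 was lower and the others were not, and all read at most 162.

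Genes of the radial spokes and the central pair were lower in 8 of 8 members, 4 of them tested, of which 2 were lower with centred arrays. Rsph4a, a radial spoke head protein, gave signals of 1398 and 1230.0 in wild type against 774 and 743 in the labelled knockout. Its groups were well apart, 1314 ± 118 against 758 ± 22.1 (SD, n = 2), and the log2 difference was -0.78 (SE 0.25). Spag16, a central pair protein, gave signals of 619 and 533 in wild type against 326 and 299.5 in the labelled knockout. This too was a clear gap, with a log2 difference of -0.85 and an SE of 0.30. Its 3 dimmer probe sets had -0.82, -0.30 and -0.45, but all lay below the filter level and read at most 154.5. Rsph1, another spoke head protein, gave signals of 1440 and 2578 in wild type against 1593 and 1750 in the labelled knockout, so only wild-type replicate 2 stood above the rest. Its log2 difference was -0.21 (SE 0.30), and it turned to 0.21 without wild-type replicate 2 and to 0.03 with arrays centred on their medians. Rsph9, the third spoke head protein in the set, had -0.10 with overlapping groups.

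The central pair genes Hydin, Spag6, Spag17 and Spef2 were too dim to be tested. Hydin, a giant protein of the central pair, gave signals of 413 and 213 in wild type against 232 and 109 in the labelled knockout, with overlapping groups. Its log2 difference came to -0.79 from replicate 1 and -0.87 from replicate 2. Spef2 gave signals of 394 and 398 in wild type against 366 and 135 in the labelled knockout, so its difference came mostly from labelled knockout replicate 2. Spag17, another large central pair protein, gave signals of 194 and 139.7 in wild type against 102 and 135 in the labelled knockout. The probe set of Spag6 read at most 95.8, and that of its paralog Spag6l, which was named Spag6 in older annotation, had a log2 difference of -0.15.

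Dynein arm and docking genes were lower in 9 of 10 members on the array (5 of 6 tested, or 4 of 6 with centred arrays), and the exception was an outer arm heavy chain. Dnah11, that heavy chain, gave signals of 1881 and 1435 in wild type against 2384 and 3130 in the labelled knockout. The groups did not overlap, and the log2 difference was 0.73 (SE 0.24), the only one above 0.5 among the 31 tested members. In the annotation Dnah11 overlaps the neighbouring gene Cdca7l, which was looked up after these values were seen. Overlaps with other genes were found for 8 more members: Ccdc39, Ccdc40, Dnaic1, Dnali1, Iqcg, Rsph1, Rsph9 and Spag17. Cdca7l gave signals of 2017 and 1473 in wild type against 2286 and 2850 in the labelled knockout, so its 4 arrays stood in the same order as those of Dnah11. The positions of the probes were not known, and whether the Dnah11 probe set reads Cdca7l transcripts was not tested.

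The other outer arm heavy chains were dim. Dnah5, the heavy chain of outer arms along the whole cilium, gave signals of 283 and 169 in wild type against 167 and 64.7 in the labelled knockout. The groups were separate only by a narrow margin, and the log2 difference of -0.95 has no test. Dnah9 gave signals of 217 and 251 in wild type against 273 and 72.1 in the labelled knockout, so it was low only on labelled knockout replicate 2. Of the outer arm intermediate chains, Dnaic1 gave signals of 506 and 671 in wild type against 525 and 329 in the labelled knockout, with a log2 difference of -0.47 and an SE of 0.35. Replicate 1 arrays differed by 0.05 and replicate 2 arrays by -0.995. Dnaic2 was lower without overlap but below the filter, at 345 and 314.5 against 235 and 182. Wdr78, an intermediate chain of inner arms, and Dnali1, an inner arm light chain, had log2 differences of -0.33 and -0.42, both without overlap. Both probe sets of Dnali1 lay in the same direction, the second at -0.49. Dynlrb2, a dynein light chain, gave signals of 5792 and 5558 in wild type against 4668 and 6274 in the labelled knockout, so its groups overlapped and the log2 difference was -0.07.

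Proteins that anchor or assemble dyneins had differences from -0.81 to near 0 on the log2 scale. Armc4, an outer arm docking protein, gave signals of 729 and 629 in wild type against 542 and 373 in the labelled knockout. The difference on the log2 scale was -0.57 (SE 0.31). Ccdc114, of the same docking complex, was below the filter and its groups overlapped. Lrrc6, a cytoplasmic factor of dynein arm assembly, gave signals of 1177 and 719 in wild type against 702 and 380.5 in the labelled knockout. The groups met almost exactly in the middle, and the log2 difference was -0.81 (SE 0.40), while its other probe set had -0.64. Its partner Zmynd10 gave signals of 1212 and 1446 in wild type against 1172 and 1431 in the labelled knockout, with nearly equal values within each replicate number and a log2 difference of -0.03.

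The 4 genes of the nexin links and of the ruler that sets the spacing along the doublet were all lower, with centred arrays too. Ccdc39, a ruler protein, gave signals of 6790 and 6099 in wild type against 4918 and 3003 in the labelled knockout. The difference on the log2 scale was -0.74 (SE 0.25). Its second bright probe set gave signals of 1598 and 1468 in wild type against 920 and 934 in the labelled knockout, so both probe sets were separate between the groups. Its partner Ccdc40 had -0.44 with separate groups, at 741 and 844 against 682 and 492. Iqcg, of the nexin-dynein regulatory complex, had -0.56, also without overlap. Drc1, of the same complex, gave signals of 722 and 851 in wild type against 889 and 332 in the labelled knockout, so it was low on labelled knockout replicate 2 alone.

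Tektins and other microtubule-associated members were lower in 5 of 5 genes, or 2 of 5 with centred arrays, with a median log2 difference of -0.17. Tekt1 and Tekt2, filament proteins of the doublet wall, had log2 differences of -0.40 and -0.33, both without overlap. Tekt4, Tppp3, a tubulin polymerisation-promoting protein, and Enkur had -0.17, -0.06 and -0.10 with overlapping groups. Tppp3 gave signals of 4361 and 4981 in wild type against 3437 and 5811 in the labelled knockout, so the labelled knockout held both its lowest and its highest reading.

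The largest difference in the set was that of Tmem212, a membrane protein known from ciliated cells. It gave signals of 2485 and 2186 in wild type against 909 and 880.0 in the labelled knockout. Group means were 2335 ± 211 and 894 ± 20.2 (SD, n = 2), which is 2.58-fold lower in the labelled knockout on the log2(signal + 16) scale. The log2 difference was -1.37 (SE 0.23; limma, adjusted p = 0.875), and it was -1.44 and -1.30 within the replicate numbers. Among all genes tested it was the 18th lowest difference. Ccdc153, a coiled-coil protein of motile cilia, gave signals of 4538 and 5546 in wild type against 2780 and 3372 in the labelled knockout. Its log2 difference was -0.71 (SE 0.20), and it was -0.70 and -0.72 within the replicate numbers. Ccdc113, another coiled-coil protein, gave signals of 878 and 1322 in wild type against 867 and 1641 in the labelled knockout. It was high on both replicate 2 arrays, with a log2 difference of 0.15 and an SE of 0.37, and was the other member that was not lower.

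Of the remaining members all but Armc3 had overlapping groups. Ak7, an adenylate kinase of cilia, gave signals of 4813 and 4864 in wild type against 3724 and 4891 in the labelled knockout, and Lrrc23, a radial spoke protein, had a log2 difference of -0.12. Mlf1 gave signals of 5282 and 3835 in wild type against 7185 and 2702 in the labelled knockout, so its differences within the replicate numbers were 0.44 and -0.50. Pifo had -0.10 with overlapping groups. Armc3 gave signals of 372 and 345 in wild type against 248 and 259 in the labelled knockout, separate by a log2 difference of -0.47 but below the filter, and Stk33 was below the filter with overlap.

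Second probe sets gave a further reading of the same RNA. The 14 members with more than 1 probe set had 20 further ones, of which 17 were lower in the labelled knockout. Only 4 of these 20 reached the filter level, those of Ccdc39, Dnaic1, Dnali1 and Lrrc6, and 4 of 4 were lower. The others lay below that level, where 65.8% of the 6499 untested genes were lower too. Probe sets of one gene share the sample and are not replicates.

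Motile cilia genes outside the set were also mostly lower. With arrays centred on their medians their median log2 difference was 0.0041, where all genes tested moved to 0.27. These 71 genes were listed from knowledge of the structure, but with earlier results of these data known, so they are not an independent set. Of them 58 were on the array and 45 tested, of which 35 were lower and 10 higher. The median was -0.23, or -0.22 from replicate 1 and -0.19 from replicate 2. The groups did not overlap in 18 lower and 4 higher genes, against 14.6% and 21.5% of all genes tested, and 0 passed the limma test. Cdhr3, a cadherin of ciliated cells, gave signals of 1291 and 1627 in wild type against 803 and 679 in the labelled knockout, which is -0.96 on the log2 scale. Cfap299 and Cfap54, proteins of cilia and flagella, had -0.91 and -1.34, and the latter was -0.63 and -2.05 within the replicate numbers. Dnaaf1, a dynein assembly factor, went the other way, at 532 and 422 in wild type against 832 and 772 in the labelled knockout, which is 0.74 on the log2 scale, or 0.20 with its probe sets averaged.

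Genes of intraflagellar transport and the BBSome, which serve primary and motile cilia alike, were split. Of 34 tested genes 18 were lower and 16 higher, with a median log2 difference of -0.03 that turned to 0.20 with arrays centred on their medians, where all genes moved to 0.27. Bbs5 and Ttc8, BBSome subunits, had log2 differences of -0.38 and -0.54, whereas Ift140 and Ift20, transport proteins, had 0.39 and 0.41, each without overlap.

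Genes listed as regulators of multiciliation, other than the 3 members, were not lower as a list. The list also held further RFX genes, such as Rfx5. It held genes of the cell cycle and of centriole duplication, such as E2f4 and Plk4, too. It was therefore not particular to multiciliation. Of 16 tested genes 13 were higher and 3 lower, with a median log2 difference of 0.08, and the groups did not overlap in 6 higher and 0 lower genes. Of all genes tested 55.9% were higher, with a median of 0.04, and 21.5% were higher and 14.6% lower without overlap. E2f4, a cell cycle factor that also acts in centriole amplification, gave signals of 482 and 386 in wild type against 848 and 715 in the labelled knockout, which is 0.83 on the log2 scale. Myb, a factor upstream of Foxj1, gave signals of 5855 and 10173 in wild type against 13327 and 12517 in the labelled knockout, which is 0.74 on the log2 scale, on an x_at probe set, a type that can bind more than 1 transcript. Myb is also known from thymocytes, and 7 of 7 tested thymocyte genes were higher, with a median of 1.25 that was 2.61 from replicate 1 and -0.06 from replicate 2. Myb itself had 1.18 from replicate 1 and 0.30 from replicate 2. Rfx5 and Plk4, the kinase of centriole duplication, had 0.18 and 0.16, the latter 0.012 with its probe sets averaged, and 9 of 9 tested mitosis genes were higher, with a median of 0.47. The part of thymocytes and of dividing cells in these values was not tested. Ccno and Deup1, which act in centriole amplification in multiciliated cells, were both slightly higher. Ccno gave signals of 3295 and 3518 in wild type against 3543 and 4027 in the labelled knockout. Deup1 gave signals of 1622 and 1522 in wild type against 1830.4 and 1628 in the labelled knockout.

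**Figure D4:**
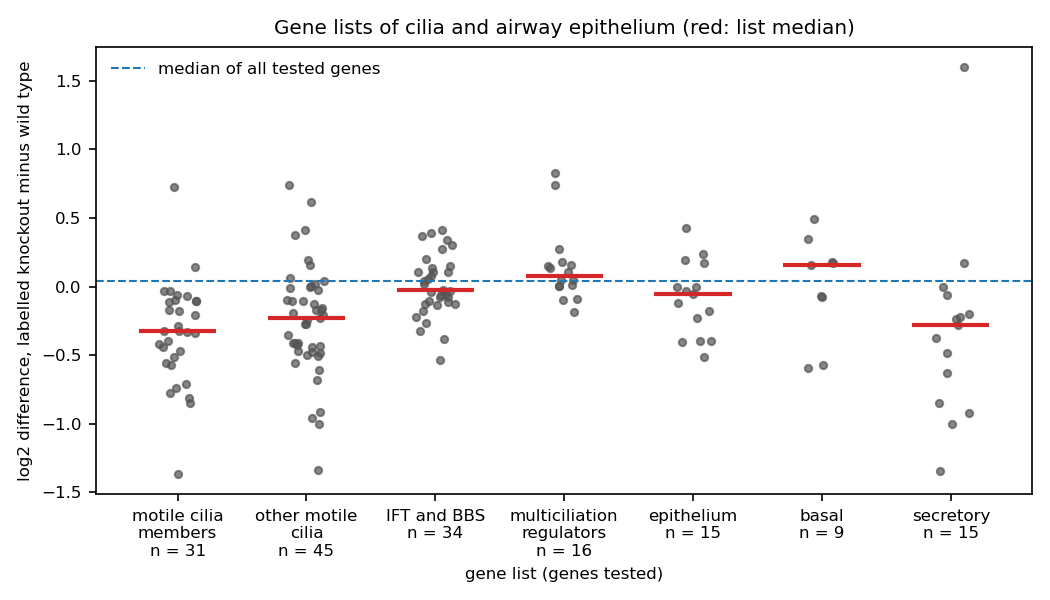
Log2 difference (labelled knockout minus wild type) of each tested gene in 7 lists of cilia and airway epithelium, with red bars at list medians and a dashed line at the median of all 11694 genes tested. Medians are -0.33 for the motile cilia members, -0.23 for other motile cilia genes, -0.03 for transport genes and 0.08 for multiciliation regulators.

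Markers of the epithelium that holds the ciliated cells are given beside these values. Pan-epithelial genes were lower in 11 of 15 tested genes with a median log2 difference of -0.06, and Cdh1, the epithelial cadherin, gave signals of 14077 and 17303 in wild type against 11563 and 12027 in the labelled knockout. Epcam, another epithelial adhesion protein, gave signals of 5889 and 8057 in wild type against 6052 and 6659 in the labelled knockout. Among the 11 lower genes, Cldn7, Cdh1, Cldn6 and Spint2 had log2 differences of -0.52, -0.40, -0.40 and -0.40. The 4 higher genes, Krt8, Krt18, Esrp1 and Esrp2, had 0.19, 0.43, 0.17 and 0.24, each with overlapping groups. Without overlap 4 pan-epithelial genes, or 26.7%, were lower and 0 higher, against 14.6% and 21.5% of all genes tested. Basal cell genes were lower in 4 of 9, with a median of 0.16 (-0.15 from replicate 1, 0.28 from replicate 2). Among the lower ones Sox2, a foregut factor, had -0.60 and Aqp3 had -0.57. Secretory genes were lower in 13 of 15, with a median of -0.28 (-0.04 from replicate 1, -0.56 from replicate 2). Without overlap 6 of the 15, or 40%, were lower and 1 was higher. Of the 16 on the array 13 were highest on wild-type replicate 2. Of the 31 tested motile cilia members 12 were highest on wild-type replicate 1 and 11 on wild-type replicate 2. Of all 11694 genes tested 2690 and 2012 were, and 40.2% were highest on either wild-type array. Without wild-type replicate 2 the members' median was -0.34. The part of these epithelial and secretory differences in the members' values was not tested.

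Other tissues with motile cilia or sperm tails could also carry these transcripts. Of 8 sperm genes 1 was tested, the protamine gene Prm1, with signals of 975 and 429 in wild type against 635 and 514 in the labelled knockout. Its groups overlapped, and the other sperm genes read at most 173. Of 7 genes known from choroid plexus 4 were tested, and 3 of them were lower without overlap, against 14.6% of all genes tested. With the untested ones, 4 of the 7 were lower and 3 higher. Folr1, a folate receptor, had a log2 difference of -0.76, with signals of 816 and 880 in wild type against 500 and 491 in the labelled knockout. Kcnj13, a potassium channel, and Clic6, a chloride channel protein, had -0.54 and -0.42. Ttr, which liver and yolk sac also make, was the higher one, at 167 and 4684 against 556 and 27074, and Otx2 read at most 90.5. Markers of the distal lung were lower in 3 of 5 tested genes and higher in 2. Their median log2 difference was -1.02 (-0.47 from replicate 1, -1.35 from replicate 2). The 3 lower ones, Sftpc, Napsa and Ager, were lower without overlap. Napsa had -1.16 and Ager -1.02, and Sftpc read 732 and 3967 in wild type against 320 and 426 in the labelled knockout. The part of any of these tissues in the members' values was not tested.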

How the data were processed

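RNA of 4 trachea samples was measured on 1 Affymetrix array each. Per the labels' protocols, 50 ng of Trizol-extracted RNA was SPIA amplified and 3.75 µg of cDNA biotin labelled. The authors deposited linear intensity signals, for which the submitters' processing notes name MAS5. Its version was not given in the sources used here. After trimming 2% from each end, every array had a mean of 1500. MAS5 values of dim probe sets are noisy, and amplification favours 3′ ends.

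Groups came from sample titles. Of 45101 probe sets, 34945 had exactly 1 gene in the platform annotation, 932 had several, 9160 had none listed and 64 were controls. Symbols were updated through gene identifiers of a RefSeq table (GRCm38.p6). The brightest probe set of each gene was tested where its mean log2(signal + 16) reached the median over all probe sets other than controls, with limma 3.58.1 in R 4.3.3 (lmFit, eBayes with trend, genotype as the only term, all 4 arrays, Benjamini-Hochberg, threshold 0.05). Fold changes on this scale understate differences of dim genes. Scripts were tested on simulated data.

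The members and lists were chosen with earlier results of these data known. Differences with an SE were given for Foxj1, Rfx2, Rfx3, Rsph1, Dnah5, Dnaic1 and Hydin whatever their values (Dnah5 and Hydin fell below the filter and have none), and for the 8 lower and 4 higher tested members with the smallest unadjusted p, of which only 2 were higher. Up to 4 genes of each neighbouring list were named by the same rule; other genes of those lists were chosen after their values were seen. Alternatives were the pseudocount, the filter, quantile normalisation, centring, array weights, no trend, averaging the probe sets of a gene, a replicate block and each array left out.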

Additional observations from a re-analysis of the deposited data

How the results depend on the processing

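With only 2 arrays per group, MAS5 noise in dim probe sets limits what can be read from genes near the filter. The median log2 difference of the motile cilia genes stayed below 0 in each of the 15 alternatives. Array weights, no trend and the replicate block could not move it with 2 arrays in each group, and left it at -0.33. It was -0.40 with no filter, -0.15 above the 75th percentile of level, -0.23 with quantile normalisation (28 of 31 lower) and -0.10 with arrays centred on their medians (18 of 31 lower), where the median of all genes tested moved from 0.04 to 0.27. Centring adds the same amount to every gene, so differences between genes do not move with it. Without each array in turn the members' median ranged from -0.42 to -0.31. The number of members past the threshold ranged from 0 to 4 and that of all genes from 0 to 492 when an array was left out, and both were 0 in all other alternatives. In the limma fit 536 genes had an unadjusted p under 0.05. With centred arrays the median was 0.0041 for other motile cilia genes, 0.20 for transport genes and 0.31 for multiciliation regulators. That of the transport genes was -0.0027 with no filter, 0.018 above the 75th percentile and -0.053 when the probe sets of a gene were averaged, and ranged from -0.0043 to 0.059 without each array.

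With the replicate number as a block the members' median was -0.33 and 0 genes passed. With quantile normalisation and the block, added after the data were seen, the median was -0.23. The block cannot change a difference in this balanced design, so only the p-values could move with it. Deviations of same-numbered arrays correlated across genes with r = 0.32, and with 2 pairs the numbers were not taken as pairing the samples. Rsph1 turned to 0.027 with centred arrays. Without each array in turn 8 of 14 named tested members moved by over 1.5 times: Rsph1 ranged from -0.62 to 0.21, Ccdc113 from -0.31 to 0.60, Rfx2 from -0.65 to -0.02, Foxj1 from -0.42 to -0.15, Dnaic1 from -0.80 to -0.15, Ccdc39 from -1.10 to -0.39, Lrrc6 from -1.24 to -0.38 and Armc4 from -0.83 to -0.31. So did 5 of 12 named genes of other lists: Cfap54, Ift20, Ttc8, Myb and Rfx5. With probe sets averaged, Rfx3 moved to -0.53, Dnaaf1 to 0.20, Myb to 0.49 and Plk4 to 0.012. The counts that follow include the settings that cannot move a difference. They also include Dnah5 and Hydin with no filter, whose values repeat the main ones. Of 374 values of 28 named genes under alternatives, 365 kept their direction and side of the threshold, 5 newly passed it and 4 changed sign; the cause was not tested.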
